A study of Saccharomyces cerevisiae with 37 samples.

Results

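The 41 genes described here encode assembly factors of the large (60S) ribosomal subunit of budding yeast, Saccharomyces cerevisiae. They were chosen by name as factors with a textbook role in that pathway. All 41 were found among the 6464 genes of the count table. Their transcripts were counted in 37 QuantSeq libraries, which read the 3′ ends of mRNAs, over a copper time course. Both strains were haploid, labelled MAT A and of the BY4741 background. One was a wild-type strain (WT, BMY1051) and the other carried a 25x array of GFA1 behind the copper-inducible CUP1 promoter (BMY3661, the array strain). Cultures were grown in rich medium, washed, kept about 2 h in minimal medium without copper, and then given copper sulfate. The labels give the dose as 500 uM in the treatment note and as 500 mM in the growth note. Libraries were made before copper (0 min), at steps of 5 min up to 30 min after it, and then at 45 and 60 min. There were 3 WT libraries at 0 min and 2 in each of the other 17 groups. Since every later library came from a copper culture, an effect of copper cannot be told apart from one of time in minimal medium. All array libraries are labelled BMY3661, but the count columns of replicate 2 carry another number than BMY3661, and the labels do not say whether the array replicates are separate isolates or cultures of 1 isolate. The array is a large repeated insertion, and a second difference between the strains cannot be told apart from the array itself.

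Large-subunit assembly begins in the nucleolus, where scaffold proteins, DEAD-box helicases and rRNA methyltransferases join the growing precursor rRNA. Later steps add the 5S particle, remove early factors with the help of GTPases and the giant ATPase Mdn1, and carry the particle through the nuclear pore. In yeast the genes for these factors belong to the ribosome biogenesis regulon, which is known to be transcribed strongly in growing cells and weakly under many stresses. Many of their promoters carry the PAC element (polymerase A and C box) and the RRPE element (ribosomal RNA processing element).

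The upstream sequences are shown first because nearly every member carried both elements. In the 250 bases upstream of the start codon in the R64 reference genome, both strands were searched for the PAC core GATGAG, its extended form CGATGAG, and the RRPE core AAAATTT. The extended form contains the core, and the RRPE letters can overlap a second copy of themselves on the other strand. The PAC core was found for 38 of 41 members (92.7%), against 17.0% of 6001 protein-coding genes. The extended form was found for 28 members (68.3%), against 6.32% of all. RRPE was found for 39 members (95.1%), against 21.7% of all. Both PAC core and RRPE were present for 36 members (87.8%), against 6.63% of all. The 71 PAC core matches lay 57 to 243 bases upstream, with a median of 123. The 94 RRPE matches lay 11 to 247 bases upstream, with a median of 141. In 29 of the 36 genes with both elements, the farthest RRPE lay farther from the start codon than the farthest PAC, and in the other 7 it lay nearer. No PAC core was matched for SPB1, RIX1 and IPI3, and no RRPE for RRP1 and MAK5. These matches are descriptions of letters and do not show that a factor bound there.

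Stretches from 250 to 81 bases upstream are printed for 5 members, 5′ to 3′ on the gene's strand, with PAC and RRPE matches in capitals. NOC2, DBP10 and MAK16 are shown because their transcripts fell in WT, and IPI3 because it has no PAC core. NIP7 is shown because it has both elements but was not called lower in the main WT comparisons. NIP7 was called lower in the array strain in a fit described below. The bases nearest the start codon were left out, since the 5′ untranslated region lies there. NOC2 is at chrXV:727262-727431 on the plus strand. DBP10 is at chrIV:393967-394136 on the plus strand. MAK16 is at chrI:101226-101395 on the minus strand. NIP7 is at chrXVI:153245-153414 on the plus strand. IPI3 is at chrXIV:297708-297877 on the minus strand.
NOC2: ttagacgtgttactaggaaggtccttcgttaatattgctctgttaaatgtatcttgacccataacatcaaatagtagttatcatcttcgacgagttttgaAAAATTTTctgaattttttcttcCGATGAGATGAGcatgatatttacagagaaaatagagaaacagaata
DBP10: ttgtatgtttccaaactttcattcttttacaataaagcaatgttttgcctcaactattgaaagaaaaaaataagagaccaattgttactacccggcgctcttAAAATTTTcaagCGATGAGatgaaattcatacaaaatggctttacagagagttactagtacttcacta
MAK16: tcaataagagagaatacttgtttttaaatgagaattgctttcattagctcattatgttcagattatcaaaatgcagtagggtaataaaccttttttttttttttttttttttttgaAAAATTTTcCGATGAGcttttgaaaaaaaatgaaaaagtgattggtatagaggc
NIP7: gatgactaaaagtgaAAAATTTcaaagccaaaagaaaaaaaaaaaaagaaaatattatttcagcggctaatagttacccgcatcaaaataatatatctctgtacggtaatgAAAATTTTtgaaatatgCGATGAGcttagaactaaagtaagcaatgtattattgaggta
IPI3: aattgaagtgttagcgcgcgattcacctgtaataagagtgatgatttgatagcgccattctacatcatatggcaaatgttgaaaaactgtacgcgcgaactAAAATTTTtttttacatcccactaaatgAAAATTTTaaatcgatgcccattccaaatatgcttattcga

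Other lists of the same pathway held the elements at similar shares, and the proteins of the finished subunit did not. The PAC core was matched for 79.1% of 43 other 60S assembly genes and for 86.4% of 66 genes of 40S assembly, and RRPE for 93.0% and 90.9%. Among the 76 genes for 60S ribosomal proteins it was matched for 9.21%, and RRPE for 25.0%. Among 12 general stress genes the shares were 0 and 8.33%.

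The libraries held 305028 to 887971 counts in genes, of which 3710 to 11917 fell in the 41 members. All 41 members passed the filter on low counts, and the lowest member count in any library was 3. Levels are given as CPM, counts scaled to a common library size, after TMM, a correction for differences in composition between libraries. 3′-end counts were not divided by length. SSF1 has a near-identical paralog, SSF2, so how the counting shared its reads is uncertain. In cell populations such as these, fewer cells with a transcript and less transcript per cell cannot be told apart, and neither can slower synthesis and faster decay. GFA1 itself checked the labels: it averaged 166 ± 160 CPM (SD, n = 3) in WT at 0 min and 1889 ± 128 CPM (SD, n = 2) in the array strain. At 30 min the array strain reached 20850 ± 766 CPM (SD, n = 2), while WT was at 226 ± 69.4 CPM (SD, n = 2).

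WT 0 min replicate 1, the shallowest library, stood apart from the other WT 0 min libraries. Of its listed reads 36.6% fell in genes, against 52.6% and 54.6% in replicates 2 and 3. Genes for 60S ribosomal proteins summed to 36192 CPM in it, against 119351 and 105644 CPM. Replicate 1 was above the mean of the other WT 0 min libraries for 30 of the 41 members. The median ratio was 1.40, with a range of 0.102 (NIP7) to 3.41 (RSA3). The coefficient of variation between replicates, as a median over members, was 30.4% in WT at 0 min and 29.6% in WT at 25 min. In the other 16 groups it was 6.09% to 13.0%. Counts of members against 0 min in WT from 10 to 30 min and at 60 min are therefore given with and without this library. Leaving it out also moved counts in comparisons that do not hold it, and the cause was not tested.

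Summed over the 41 members, transcript levels in WT were lower from 10 to 30 min than before copper and high again at 60 min. WT began at 18156, 12313 and 12598 CPM in its 3 libraries at 0 min, a mean of 14356 ± 3294 (SD), or 12456 ± 201 (SD, n = 2) without replicate 1. The WT sum was 11069 ± 799 CPM at 5 min, 8903 ± 873 at 10 min, 7964 ± 160 at 15 min and 7673 ± 199 at 20 min (SD, n = 2 each). It stayed at 7823 ± 1960 CPM at 25 min and 7471 ± 120 at 30 min, then stood at 12889 ± 1729 at 45 min and 16284 ± 900 at 60 min (SD, n = 2 each). The array strain began at 14231 ± 462 CPM and had its lowest mean, 10519 ± 373, at 20 min (SD, n = 2 each). It was at 12157 ± 1077 CPM by 30 min and at 14381 ± 567 by 60 min (SD, n = 2 each). At each time from 5 to 30 min every WT library lay below every array library. The same held at 0 min without WT 0 min replicate 1.

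**Figure D1:**
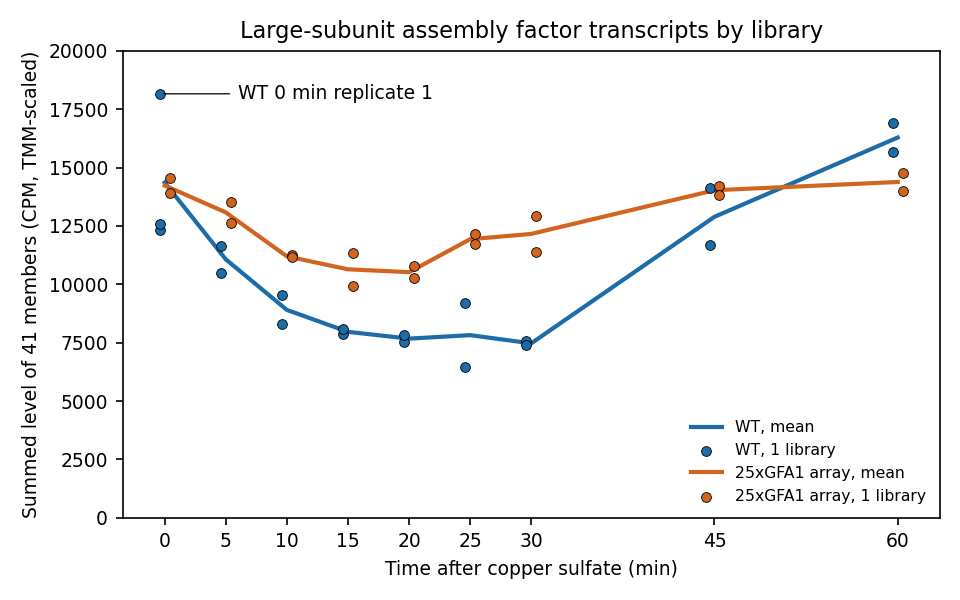
Summed level of the 41 members in each library (CPM, TMM-scaled) against time after copper sulfate (min), with points for libraries and lines for strain means. The WT mean is 14356 CPM at 0 min, 7471 at 30 min and 16284 at 60 min, while the lowest mean of the array strain is 10519.

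The lowest level fell in the same broad window for nearly all members. The lowest group mean lay between 10 and 30 min for 40 of 41 members in WT and for 41 of 41 in the array strain. That window covers most of the 9 times, and the share over all genes was not computed. The WT low was at 15, 20, 25 and 30 min for 6, 9, 12 and 12 members. In the array strain the low was at 10, 15, 20, 25 and 30 min for 5, 11, 14, 2 and 9. The highest WT mean was at 60 min for 31 members, while the highest array mean was at 0 min for 14 and at 60 min for 13. The ratio of the highest to the lowest group mean had a median of 2.46 over the members in WT, and in the array strain this median was 1.62.

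**Figure D2:**
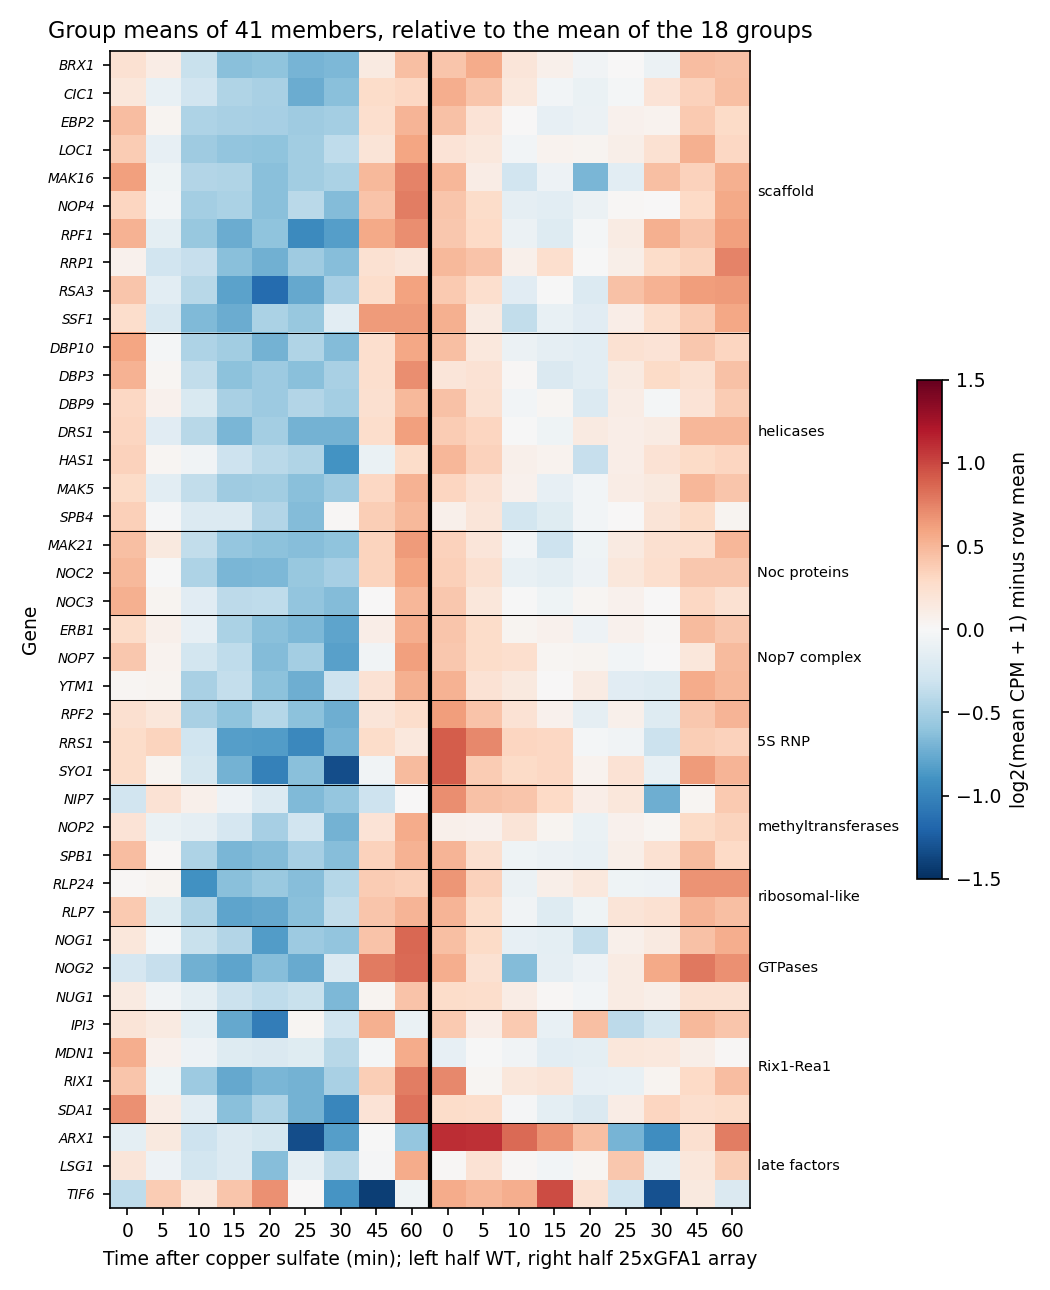
Group means of each member at the 9 times in WT (left) and in the array strain (right), as log2 values relative to the member's mean over the 18 groups. Most rows are low from 10 to 30 min in WT, where 40 of 41 members have their lowest mean, and vary less in the array strain.

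The first comparison asked how the members differed in WT after copper. Tests were edgeR's quasi-likelihood F tests over 4995 genes with Benjamini-Hochberg adjustment, and a gene was called at an adjusted p under 0.05. At 5 min 0 members were called (0% of all genes were called lower), with 12 members at an unadjusted p under 0.05 and 0 called by DESeq2. Here and below, counts at an unadjusted p and counts of values above or below 0 are given without the share over all genes. They are not calls. At 10 min 14 members had fallen (1.52% of all genes), at 15 min 23 (3.2%) and at 20 min 26 (3.42%). At 25 min 25 members were lower (2.76%) and at 30 min 27 (3.36%). None was higher at these times, when 0.781%, 1.96%, 2.12%, 2.34% and 2.7% of all genes were. The median log2 fold change over the members was −0.34, −0.64, −0.84, −0.89, −0.91 and −0.91 from 5 to 30 min. At 20 min the median member stood at 0.539 times its 0 min level, while the median over all genes tested was −0.0054. Without WT 0 min replicate 1 the counts from 10 to 30 min were 16, 20, 23, 27 and 24 (2.29%, 3.9%, 4.4%, 4.68% and 4.52% of all genes), and the medians ran from −0.57 to −0.78. Of the 26 members called at 20 min, 22 were also called without that library.

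By role, the fall at 20 min took in 7 of 10 scaffold factors, 6 of 7 helicases, 3 of 3 Noc proteins and 3 of 3 subunits of the Nop7-Erb1-Ytm1 complex. It also took in 2 of 3 factors of the 5S particle, 2 of 4 of the Rix1 and Mdn1 stage and 1 of 2 ribosomal-like proteins. In the methyltransferase group, where NIP7, a factor of nuclear pre-60S particles, was also placed, it took in 1 of 3. Of the late factors 1 of 3 had fallen, the GTPase LSG1. Of the other GTPases, NOG1, NOG2 and NUG1, 0 of 3 were called, but with culture as a block all 3 were lower (log2 fold changes of −1.32, −0.69 and −0.71; edgeR adjusted p = 0.00429, 0.0407 and 0.0269). All WT 20 min libraries lay below all WT 0 min libraries for 32 of 41 members (12.4% of all genes).

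NOC2 (YOR206W), a nucleolar partner of Mak21 and Noc3, was the clearest example. It was at 888, 640 and 781 CPM in the WT 0 min libraries and at 345 and 337 CPM at 20 min. The groups did not overlap, and both 20 min libraries were near 0.444 times the 0 min level. The log2 fold change was −1.17 ± 0.20 (SE), with an adjusted p of 0.000966 by edgeR. In the same comparison its partner MAK21 gave −1.06 ± 0.19 (SE; edgeR adjusted p = 0.0013). In a fit to only the libraries compared NOC2 was not called (−1.21, edgeR adjusted p = 0.981), nor was any other member.

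Among the helicases, which remodel RNA in the particle, DBP10 (YDL031W) was at 792, 441 and 530 CPM at 0 min and at 259 and 219 CPM at 20 min. Again the groups did not overlap, and the highest 0 min library was replicate 1. DBP10 fell by 1.29 ± 0.22 on the log2 scale (SE; edgeR adjusted p = 0.0011). DRS1, another DEAD-box helicase, fell by 0.83 ± 0.19 (SE; edgeR adjusted p = 0.00911).

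The scaffold factor EBP2 (YKL172W), a partner of Brx1, was at 1108, 803 and 1038 CPM at 0 min and at 486 and 523 CPM at 20 min. The 20 min libraries lay well below the lowest 0 min library. EBP2 fell by 0.96 ± 0.18 on the log2 scale (SE; edgeR adjusted p = 0.00273). MAK16 (YAL025C), an early scaffold factor, was at 186, 107 and 89.9 CPM and then at 42.3 and 65.0 CPM, without overlap. It fell by 1.19 ± 0.27 on the log2 scale (SE; edgeR adjusted p = 0.01). RSA3 (YLR221C), which acts with the Dbp6 helicase complex, showed the most negative log2 fold change of all members, and that value rested on a single library. It was at 385, 140 and 85.6 CPM at 0 min and at 77.9 and 57.9 CPM at 20 min, a log2 fold change of −1.50 ± 0.39 (SE; edgeR adjusted p = 0.0207). Without WT 0 min replicate 1 the value was −0.70, with an adjusted p of 0.0888 by edgeR.

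NOP7 (YGR103W) is a subunit of the Nop7-Erb1-Ytm1 complex, which Mdn1 later pulls from the particle. It was at 1050.0, 643 and 878 CPM at 0 min and at 394 and 427 CPM at 20 min, without overlap. The fall was 1.06 ± 0.20 on the log2 scale (SE; edgeR adjusted p = 0.00283). SPB1 (YCL054W), a methyltransferase of 25S rRNA, was at 997, 567 and 567 CPM and then at 320 and 334 CPM. SPB1 fell by 1.11 ± 0.23 (SE; edgeR adjusted p = 0.00622). Its values lay well apart too, although no PAC core was matched upstream of it.

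RLP7 (YNL002C) is a ribosomal-like protein related to Rpl7. It was at 359, 490 and 673 CPM at 0 min and at 223 and 232 CPM at 20 min. Here replicate 1 was the lowest of the 0 min libraries, and the groups still did not overlap. RLP7 fell by 1.17 ± 0.22 on the log2 scale (SE; edgeR adjusted p = 0.00286).

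RRS1 (YOR294W), which loads the 5S particle together with Rpf2, was at 55.8, 110 and 117 CPM at 0 min and at 45.7 and 40.4 CPM at 20 min. RRS1 fell by 1.18 ± 0.29 on the log2 scale (SE; edgeR adjusted p = 0.0157). RPF2 (YKR081C) was at 213, 252 and 175 CPM and then at 152 and 118 CPM, a log2 fold change of −0.65 that was not called (edgeR adjusted p = 0.0609). With culture as a block RPF2 was called (−0.80; edgeR adjusted p = 0.0191) and RRS1 was not (−0.99; edgeR adjusted p = 0.0545). The groups did not overlap for either partner. LSG1 (YGL099W), a cytoplasmic GTPase that releases the export adaptor Nmd3, was at 242, 131 and 214 CPM and then at 113 and 107 CPM. LSG1 fell by 0.81 ± 0.21 (SE; edgeR adjusted p = 0.0238). Without WT 0 min replicate 3 LSG1 was not called (edgeR adjusted p = 0.058). In a fit to the WT libraries alone, only NOC2, MAK21 and DBP10 of the members called above stayed called. DRS1, EBP2, MAK16, RSA3, NOP7, SPB1, RLP7, RRS1 and LSG1 did not (edgeR adjusted p = 0.0681 to 0.144).

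Some members were not called at 20 min. NUG1 (YER006W), a GTPase of nucleolar particles, was at 1244, 1017 and 716 CPM at 0 min and at 621 and 758 CPM at 20 min, so its groups overlapped (log2 fold change −0.52; edgeR adjusted p = 0.156). Apart from the fit with the block, NUG1 was called lower without WT 0 min replicate 3 (edgeR adjusted p = 0.0337). MDN1 (YLR106C), the ATPase also named Rea1, was at 2653, 1143 and 1328 CPM and then at 1016 and 1009 CPM (−0.75; edgeR adjusted p = 0.0838). Its 0 min mean was set largely by replicate 1. MDN1 was called lower by DESeq2 (adjusted p = 0.0422) and by edgeR with culture as a block (adjusted p = 0.0374) or without WT 0 min replicate 2 or 3 (adjusted p = 0.0107 and 0.0368). NIP7 (YPL211W), a factor of nuclear pre-60S particles, was at 15.9, 160 and 153 CPM and then at 115 and 116 CPM. Its log2 fold change was −0.02 and turned positive under several other settings. That value depended on WT 0 min replicate 1, which was at 0.102 times the mean of the other 0 min libraries. Both 20 min libraries lay below those other 0 min libraries. In a fit to the array libraries alone NIP7 gave −0.61 at 20 min (edgeR adjusted p = 0.0657). TIF6 (YPR016C), which keeps the subunits from joining early, was at 10.6, 17.6 and 13.7 CPM and then at 15.2 and 45.6 CPM (1.07; edgeR adjusted p = 0.201). IPI3 (YNL182C), of the Rix1 complex, was at 7.97, 27.1 and 41.2 CPM and then at 13.5 and 7.02 CPM (−1.44; edgeR adjusted p = 0.152). IPI3 was called lower without WT 0 min replicate 1 (−1.74; edgeR adjusted p = 0.0366). TIF6 and IPI3 had the lowest mean CPM of the members, and their replicates differed several-fold.

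**Figure D3:**
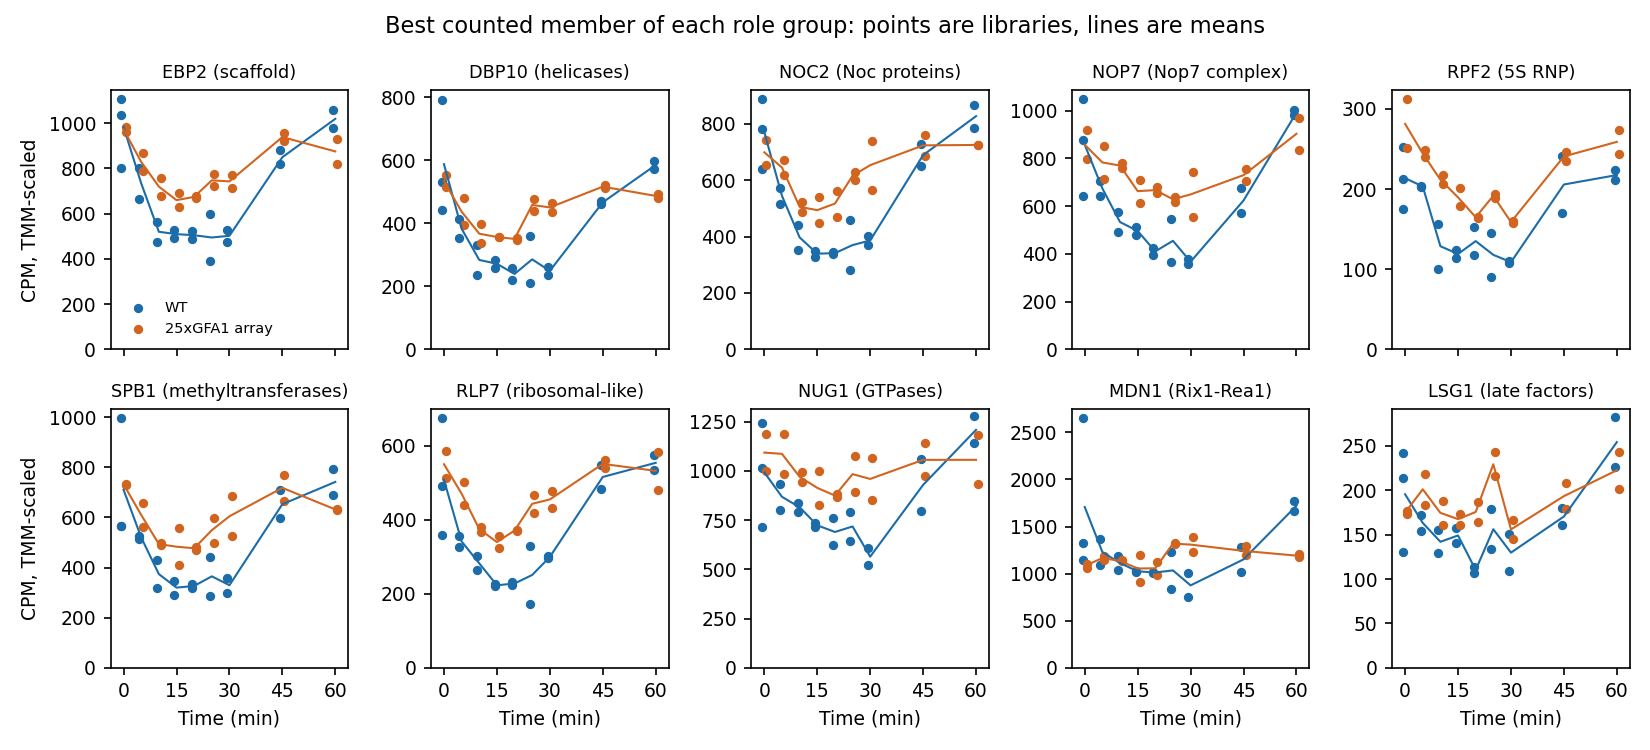
Level of the best counted member of each of the 10 role groups (CPM, TMM-scaled) against time (min), with points for libraries and lines for means. NOC2, DBP10, EBP2, NOP7, SPB1 and RLP7 show separate WT values at 0 and 20 min, NUG1 shows overlapping values, and 1 WT 0 min library of MDN1 lies at 2653 CPM.

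The count of members lower depended on which early time was the base. Against 5 min, 0 members were called at 20 min in WT (0.04% of all genes lower), with 21 at an unadjusted p under 0.05 and 1 called by DESeq2. At 30 min against 5 min 2 members had fallen (0.48%), NOP7 by 0.88 and ERB1 by 0.87 on the log2 scale. The corresponding count was 7 without WT 0 min replicate 1 (0.925% of all genes) and 6 with culture as a block (0.761%). When the 4 times from 15 to 30 min were averaged and set against 0 and 5 min together, 35 members were lower (5.31% of all genes), with a median of −0.73, and 35 were without WT 0 min replicate 1 (6.89%). The same average in the array strain gave 4 members lower (0.621%), RPF2, BRX1, ARX1 and RRS1, with a median of −0.33, and 25 in a fit to the array libraries alone (11.1%). These averages were chosen after the data were seen, and libraries of the same numbered culture entered them as if they were separate.

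The count at 20 min also rested on both 20 min libraries. With replicate 1 of that time left out it was 5, of 55 genes called in either direction, and with replicate 2 left out it was 1, of 15 genes. The medians over members were −0.91 and −0.96. The library that remained was then assumed to vary like the other groups. In a fit to the WT libraries alone the count was 3 (0.305% of all genes).

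The return was measured between 20 and 60 min, which leaves out the 0 min libraries from the contrast. In WT 32 of 41 members rose (4.42% of all genes were called higher), and none was lower (2.02%). The median over members was 1.13 on the log2 scale, or 2.19-fold, against −0.04 over all genes tested. The rise took in 9 of 10 scaffold factors, 6 of 7 helicases, 3 of 3 Noc proteins, 3 of 3 of the Nop7 complex and the GTPases NOG1, NOG2 and NUG1. It took in both ribosomal-like proteins, 2 of 3 in the methyltransferase group, 2 of 4 of the Rix1 and Mdn1 stage, 1 of 3 of the 5S particle and 1 of 3 late factors. The 60 min libraries lay above the 20 min libraries for 37 members (29.6% of all genes). The count was 20 and 19 when replicate 1 or 2 of the 20 min group was left out, of 122 and 107 genes called in either direction. It was 19 of 86 genes when replicate 1 of the 60 min group was left out, and 17 members in a fit to WT alone (1.53% of all genes).

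NOC2 came back to 868 and 786 CPM at 60 min, 2.42 times its 20 min level and within the range of the 0 min libraries. The log2 fold change against 20 min was 1.28 ± 0.21 (SE; edgeR adjusted p = 0.000614). DBP10 came back to 597 and 572 CPM (1.29 ± 0.24, SE; edgeR adjusted p = 0.00112). NOP7 was at 1003 and 981 CPM (1.27 ± 0.22, SE; edgeR adjusted p = 0.000709). Each of these 3 ended inside the range of its own 0 min libraries, but replicate 1 was the top of that range each time. Without replicate 1, both 60 min libraries of each gene lay above its 0 min libraries.

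From 20 to 60 min NOG1, NOG2 and NUG1 were called higher. NUG1 reached 1276 and 1140.5 CPM, a log2 fold change of 0.81 ± 0.23 against 20 min (SE; edgeR adjusted p = 0.0328). That call was lost when any 1 of the 4 libraries was left out (edgeR adjusted p = 0.0781 to 0.236) and in a fit to WT alone (0.150). NOG2 (YNR053C), a GTPase of nuclear particles, was at 72.8 and 98.3 CPM at 20 min and at 221 and 263 CPM at 60 min. NOG2 rose by 1.50 ± 0.26 on the log2 scale (SE; edgeR adjusted p = 0.000947). It was the only member called against 0 min at the late times. Its 0 min libraries held 136, 139 and 62.4 CPM, below both 60 min libraries.

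Against 0 min, 1 member was higher at 45 min (0.721% of all genes) and 1 at 60 min (0.44%), NOG2 in each case. NOG2 was higher by 1.09 ± 0.23 at 45 min and by 1.15 ± 0.23 at 60 min on the log2 scale (SE; edgeR adjusted p = 0.0175 and 0.0122). The median member was at −0.07 at 45 min and at 0.20 at 60 min. Without WT 0 min replicate 1, 6 members were higher at 60 min (6.31% of all genes), with a median of 0.38. With either 60 min library left out 0 were called.

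A single test over all 9 times, with no time singled out, called 34 of 41 members in WT (8.75% of all genes). The 7 not called were HAS1, NIP7, TIF6, IPI3, MDN1, ARX1 and CIC1. In a fit to WT libraries alone the count was 18 (2.42%).

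In the array strain most members also lay lower at 20 min. At 20 min against 0 min 39 of 41 log2 fold changes were below 0, with a median of −0.49. None was called (0.02% of all genes were called lower). An unadjusted p under 0.05 was found for 21, a count without its share of all genes. The array 20 min libraries lay below the array 0 min libraries for 37 members (18.7% of all genes). In a fit to the array libraries alone 13 members were lower (0.933% of all genes), and with only the libraries compared 11 were (0.731%). WT 0 min replicate 1 takes no part in those fits. The median over members was −0.15 at 5 min, −0.40 at 10 min, −0.47 at 15 min, −0.38 at 25 min, −0.28 at 30 min, −0.03 at 45 min and 0.01 at 60 min.

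NOC2 in the array strain was at 744 and 653 CPM at 0 min and at 471 and 563 CPM at 20 min (log2 fold change −0.44 ± 0.21, SE; edgeR adjusted p = 0.815). DBP10 was at 554 and 513 CPM and then at 346 and 354 CPM (−0.61 ± 0.23, SE; edgeR adjusted p = 0.615). MAK16 was at 124 and 112 CPM and then at 46.4 and 56.5 CPM (−1.20 ± 0.30, SE; edgeR adjusted p = 0.217). MAK16 had the lowest value of the array strain, nearly the same size as its fall in WT, and in the array-only fit it was called (edgeR adjusted p = 0.00735).

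RRS1 was at 139 and 156 CPM at 0 min and at 69.6 and 83.8 CPM at 20 min (−0.94 ± 0.29, SE; edgeR adjusted p = 0.448). It was the only member called at 30 min against 0 min in the array strain (0.521% of all genes were lower), where its libraries held 87.4 and 37.2 CPM and it had fallen by 1.25 ± 0.31 (SE; edgeR adjusted p = 0.0395). The 30 min count was 6 with culture as a block (2.54%), 8 without WT 0 min replicate 1 (9.61%) and 15 in the array-only fit (14.4%). In the array-only fit ARX1, TIF6 and NIP7 fell by more than RRS1 at 30 min. Their values were −2.02, −1.96 and −1.44 (edgeR adjusted p = 0.000334, 0.00816 and 1.18e-05), and TIF6 had few counts. MAK16, NOC2 and RPF1 lay near 0 there (−0.04, −0.09 and 0.14). At 20 min LSG1 and MDN1 gave values near 0, whose sign turned under other settings. LSG1 was at 173 and 176 CPM and then at 164 and 187 CPM (0.01 ± 0.23, SE), and MDN1 was at 1056 and 1106 CPM and then at 990.1 and 1124 CPM (−0.03 ± 0.27, SE).

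From 20 to 60 min in the array strain 0 members were called (0% of all genes were called higher), with a median of 0.48 and 18 members at an unadjusted p under 0.05. DESeq2 also called 0. Alone the array libraries gave 15 members higher (1.51% of all genes), among them NOG1 by 0.95 and MAK16 by 1.27 on the log2 scale. Over all 9 times the array strain gave 1 member (0.621% of all genes), NOG2, with an edgeR adjusted p of 0.0368, and 31 in the array-only fit (23.8%). That call was lost without any 1 of 9 array libraries.

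**Figure D4:**
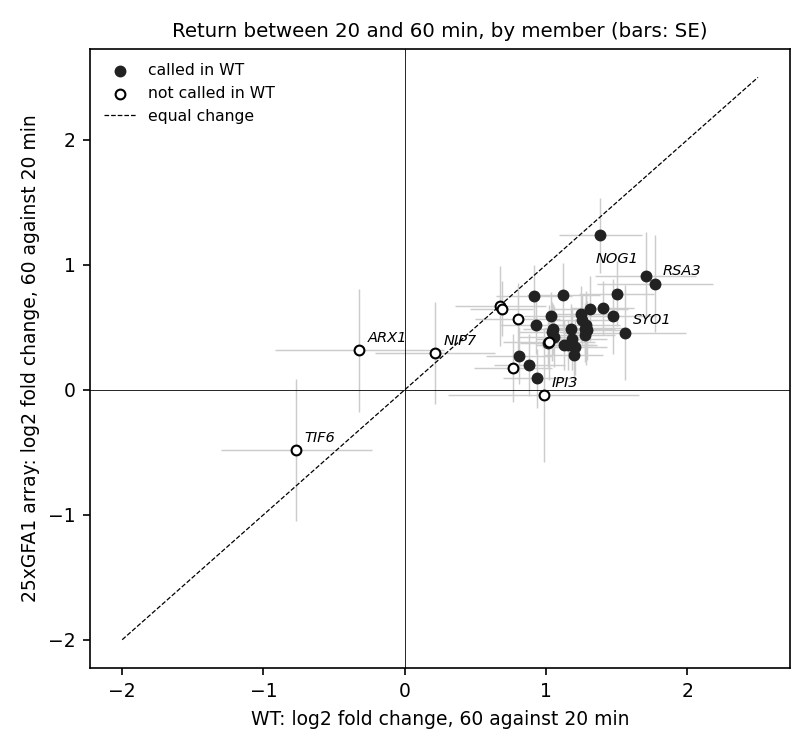
Log2 fold change at 60 min against 20 min in WT (horizontal) and in the array strain (vertical) for each of the 41 members, with SE bars, filled where called in WT. Most points lie above 0 on both axes and below the line of equal change, where the median is 1.13 for WT and 0.48 for the array strain.

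The strains were then compared directly at each time. Before copper 1 member differed (1.58% of all genes were higher in the array strain): NOG2 was higher by 0.84 ± 0.23 on the log2 scale (SE; edgeR adjusted p = 0.0446). That call was lost with culture as a block, and the count was between 0 and 6 when single libraries were left out. At 5, 10, 15 and 20 min 0 members were called, while 39 of 41 were above 0 at 20 min. The shares of all genes called higher at those times were 0.741%, 0.821%, 0.821% and 0.841%. At 25 min 3 members were higher in the array strain (1.2%), RPF1, DRS1 and MAK21. At 30 min 9 were higher (1.9%). At 45 and 60 min 0 were called (0.661% and 0.521%), and 30 of 41 were below 0 at 60 min.

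The 9 members at 30 min were RPF1, SDA1, MAK21, DRS1, ERB1, NOP7, NOC2, DBP10 and SPB1. RPF1 (YHR088W), which binds Mak16, was at 83.8 and 95.1 CPM in WT and at 291 and 173 CPM in the array strain. The difference was 1.37 ± 0.28 on the log2 scale (SE; edgeR adjusted p = 0.00384). SDA1 (YGR245C), a nuclear factor of the Rix1 stage, was at 113 and 144 CPM in WT and at 352 and 280 CPM in the array strain, a difference of 1.30 ± 0.31 (SE; edgeR adjusted p = 0.015). The other 7 differed by 0.76 (NOC2) to 0.87 (SPB1). The groups did not overlap for RPF1 or SDA1, which was common at 30 min. The array libraries lay wholly above the WT libraries for 31 members (29.6% of all genes) and wholly below for 0 (29.9%). With culture as a block the counts were 12 at 25 min (1.9% of all genes) and 22 at 30 min (3.9%), and without WT 0 min replicate 1 they were 17 (2.81%) and 26 (6.77%).

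Averaged over 15 to 30 min, 34 of 41 members were higher in the array strain (9.41% of all genes were), and none was lower (9.49%). The median difference was 0.59 on the log2 scale, or 1.50-fold, while over all genes it was −0.0031. At 0 min the median over members was 0.27 without WT 0 min replicate 1, 0.054 without replicate 2 and 0.0064 without replicate 3. As above, this average was added after the data were seen and holds repeated samples of the same cultures. It took in 9 of 10 scaffold factors, 6 of 7 helicases, and all of the Noc, Nop7, 5S and ribosomal-like groups, with NOG1, NOG2 and NUG1. It took in 2 of 3 in the methyltransferase group, 2 of 4 of the Rix1 and Mdn1 stage and 1 of 3 late factors. For 17 members all 8 array libraries of these times lay above all 8 WT libraries (2.88% of all genes), and for 0 they lay below.

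RPF1 ran from 117 to 291 CPM in the 8 array libraries and from 65.9 to 114 CPM in the 8 WT libraries, without overlap. SYO1 (YDL063C), the importer that carries Rpl5 and Rpl11 into the nucleus together, showed the highest difference, 1.08 ± 0.22 (SE; edgeR adjusted p = 0.00104). MAK16, SPB4, NIP7, TIF6, IPI3, MDN1 and ARX1 were not called.

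Whether the strains differed in the change itself was tested with an interaction term. No member was called for 20 min against 0 min (0% of all genes), for 30 min against 0 min (0.02% of all genes lower, 0% higher) or for 60 min against 20 min (0%). At 30 min against 0 min 17 members had an unadjusted p under 0.05, with a median of 0.58, and DESeq2 called 9, of 153 genes called in either direction. With culture as a block 15 were called at 30 min (8.15% of all genes higher). At 60 min against 20 min the median was −0.68 and 15 had an unadjusted p under 0.05. Over all 9 times the interaction gave 0 members (0%), with 9 at an unadjusted p under 0.05.

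Markers of mating type and of general stress moved with the strain, although both strains carry the same mating type label. All 7 markers of a cells were higher in the array strain at 0 min, with a median of 3.16 on the log2 scale. Their summed level was 178 to 493 CPM in WT libraries and 1384 to 2869 CPM in array libraries. The markers of α cells MF(ALPHA)1, MF(ALPHA)2 and STE3 held 0 to 6 counts in all libraries of a strain, and SAG1 held 283 in WT and 292 in the array strain. General stress genes summed to 930 to 2896 CPM in WT libraries and to 241 to 871 CPM in array libraries. For the next counts, the shares of all genes called are those given above for the members in the same comparisons. Averaged over 15 to 30 min, 9 of 11 stress genes were lower in the array strain, with a median of −1.79. In WT at 20 min 5 of 11 had risen against 0 min, with a median of 1.58. The part of these differences in the members' results was not tested.

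Related lists give the setting. For the counts that follow, the shares of all genes called are those given above for the members in the same comparisons. At 20 min against 0 min in WT 21 of 43 other 60S assembly genes had fallen (median −0.77) and 35 of 65 genes of 40S assembly (median −0.82). Of 7 tested subunits of RNA polymerase I, 2 had fallen (median −0.39). From 20 to 60 min 28 of 43 and 41 of 65 assembly genes rose, with medians of 0.96 and 0.99. At 15 to 30 min 31 of 43 and 47 of 65 were higher in the array strain, with medians of 0.47 and 0.45.

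Genes for the 76 proteins of the finished large subunit gave other values. None was called at 20 min against 0 min in WT, where their median was 0.27. The sign turned without WT 0 min replicate 1, where the median was −0.09 and 8 had fallen. The share of all genes lower in that fit is given above with the members. None was called from 20 to 60 min (median −0.18). RPL7A, RPL7B, RPL24A and RPL24B are the ribosomal counterparts of the members RLP7 and RLP24, and at 20 min against 0 min in WT their median was 0.11, or −0.19 without WT 0 min replicate 1. RLP7 itself fell in that comparison. In the array strain the median of the 76 ribosomal protein genes was −0.01 at 20 min and −0.56 at 30 min against 0 min. At 30 min 0 of the 76 were called in the fit to all libraries, 39 were lower without WT 0 min replicate 1 (9.61% of all genes) and 50 in the array-only fit (14.4%). Averaged over 15 to 30 min, 9 of 76 were higher in the array strain (median 0.23), against 9.41% of all genes.

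**Figure D5:**
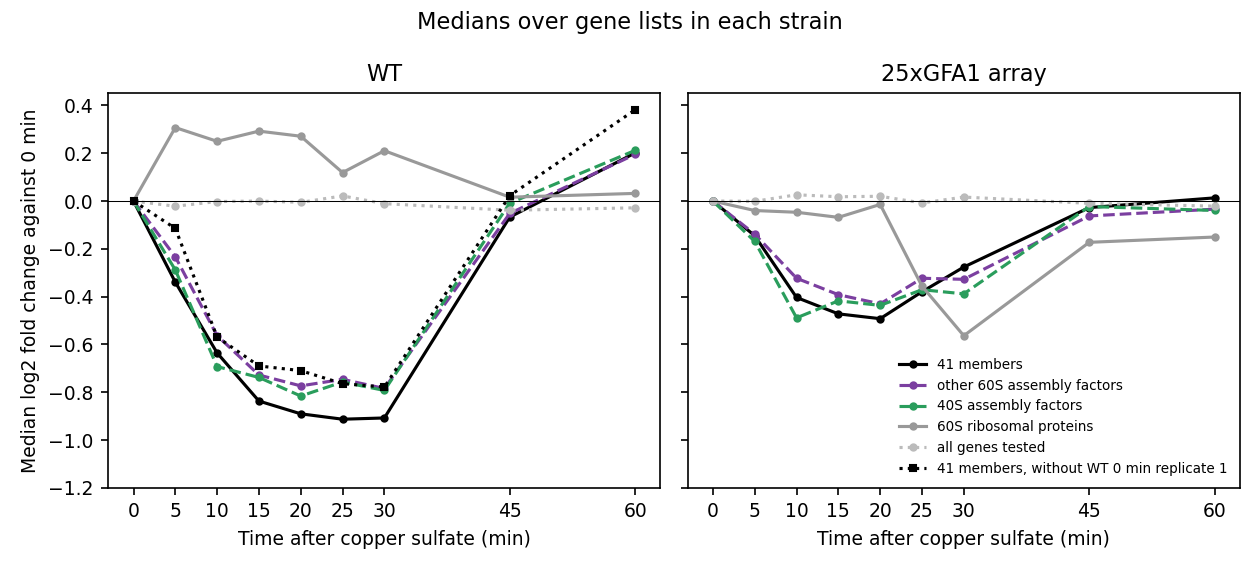
Median log2 fold change against 0 min for each gene list, by time (min), in WT (left) and in the array strain (right), with the WT members also drawn without WT 0 min replicate 1. Assembly factor lists reach medians of −0.77 to −0.89 at 20 min in WT and of −0.43 to −0.49 in the array strain, where the ribosomal proteins stand at 0.27 and −0.01; in the array strain the latter reach −0.56 at 30 min.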

How the data were processed

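RNA was measured in 37 QuantSeq 3′-end libraries. The authors deposited whole-number read counts for each gene, without normalization. The submitters' processing notes name STAR 2.7.10a, HTSeq 2.0.2, SAMtools 1.10 and FastQC 0.11.9, with build R64 of the genome. Neither the annotation release nor HTSeq's strand setting is given there, so a member and a gene overlapping it on the other strand may share counts. Reads in genes made up 36.6% to 54.6% of the listed reads, those with no feature 34.8% to 50.6% and those not unique 6.17% to 13.6%. Only counts in genes entered library sizes. The share in genes differed between groups that were compared. In WT it was 48.8% and 51.8% at 20 min and 43.1% and 45.9% at 60 min. At 30 min it was 51.1% and 46.8% in WT and 40.8% and 42.7% in the array strain. The part of this share in the members' results was not tested. No molecular identifiers were named, so copies made by PCR count as molecules. Of the 6464 genes, 6461 matched the R64 annotation by locus tag, which gave the upstream sequences.

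From these counts, edgeR 4.0.16 in R 4.3.3 (TMM scaling, filterByExpr with a minimum count of 10, quasi-likelihood F tests, Benjamini-Hochberg adjustment over 4995 genes) fitted 18 strain-by-time groups at once, with 19 residual degrees of freedom. The p-values measure the spread between the numbered libraries, which are read from the growth note as cultures. Same-numbered libraries of 2 times deviated from their group means with a median correlation of 0.0948 in WT (−0.394 to 0.568 over 36 pairs of times). The median was 0.073 in the array strain and −0.0216 between strains (9 pairs). The main fit has no replicate block, a choice made on these medians. In WT all pairs of times from 0 to 25 min were positive (0.124 to 0.568). Pairs of those times with 30 or 45 min were all negative. The WT median mixes both kinds, so it does not show that WT contrasts from 0 to 25 min need no block. Other settings were DESeq2 1.42.0, its size factors, limma 3.58.1 voom, no filter, a minimum count of 30, culture as a block, GFA1 left out, only the libraries compared, only 1 strain, and each library left out. Per-library values are given for the best counted member of each role group and for the 2 lowest and 2 highest fold changes at 20 min in each strain; other members named were chosen after their values were seen. The members, lists and motifs were chosen with earlier results of these data known.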

Additional observations from a re-analysis of the deposited data

How the results depend on the processing

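Over the settings tried, 249 of 292 recomputed counts of members in the main comparisons stayed within 1.5 times the count reported. A count of 0 that stayed at 0 was taken as unchanged. Fits to fewer libraries moved most of the others. In the remaining comparisons another 116 recomputed counts moved by more than that. With only the libraries compared, WT gave 0 members at 20 min against 0 min and 0 at 60 min against 0 min, the array strain gave 11 at 20 min against 0 min and 12 at 60 min against 20 min, and array against WT gave 0 at 0 min, 12 at 20 min and 4 at 60 min. Over all 9 times that setting gave 18 members in WT and 31 in the array strain. The counts of 12, 12 and 4 are given without direction or share of all genes, and show only how far the counts moved. At 20 min all array libraries lay above all WT libraries for 38 members (26.1% of all genes) and below for 0 (22.4%). At 60 min they lay above for 7 (25.6%) and below for 18 (28.0%). With only the libraries of the strain, chosen after seeing the data, the counts were 3, 0 and 17 for WT (20 against 0, 60 against 0 and 60 against 20 min), 13 and 15 for the array strain (20 against 0 and 60 against 20 min), and again 18 and 31 over all times. DESeq2 gave 1 for WT at 20 min against 5 min and 2 for the array strain over all times. With culture as a replicate block, the counts were 1 for the array strain at 60 min against 20 min, 2 for it over all times and 0 for array against WT at 0 min; at the individual times 25 and 30 min the block raised the count of members higher in the array strain, as given with those results, and it moved the interaction at 30 min from 0 to 15. The cause of these shifts was not tested.

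Leaving out 1 library at a time gave 1 to 30 members for WT at 20 min against 0 min, 0 to 6 at 60 min against 0 min, 19 to 25 at 60 min against 20 min, 30 to 38 over all WT times, 0 to 1 over all array times and 0 to 6 for array against WT at 0 min. Directions turned for members with few counts or values near 0. NIP7 at 20 min against 0 min in WT was 0.016 with DESeq2, 0.022 with only the libraries compared, 0.33 with voom and 0.29 with the block, and −0.43 to 0.26 leaving out 1 library, with 0.25 when WT 0 min replicate 2 was out. At 60 min against 20 min in WT the range when 1 library was left out was −0.087 to 0.45 for NIP7, −0.38 to 1.65 for IPI3 and −1.36 to 0.21 for TIF6. At 20 min against 0 min in the array strain that range was −0.082 to 0.092 for LSG1 (−0.012 when array 0 min replicate 1 was out), −0.12 to 0.050 for MDN1 (0.0092 when array 0 min replicate 2 was out), −0.23 to 0.44 for IPI3 and −1.02 to 0.13 for TIF6. LSG1 was also −0.014 with only the libraries compared and −0.0045 with only those of the strain. Members with few counts, such as TIF6, IPI3 and SYO1, are measured least well at this depth.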
